A study of Mus musculus with 2 samples.

Results

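Activator protein 1 (AP-1) transcription factors were examined in long-term hematopoietic stem cells (LT-HSCs) sorted from the bone marrow of 2-year-old mice. The 10 members were Fos, Fosb, Fosl1, Fosl2, Jun, Junb, Jund, Atf3, Batf and Maff, taken by gene name from the non-control probes of a 1-colour Agilent array. All 10 genes were found, by 11 of the 55681 probes on the array, with 2 probes for Fosl2 and 1 for each of the others. The study asked what loss of p38α, a stress-activated kinase encoded by Mapk14, does to HSCs at different stages of aging, and the arrays addressed late loss. One array held LT-HSC RNA of wild-type mice (WT) and the other that of p38α conditional knockout mice (p38KO), all C57BL/6J. The p38KO mice carried CAG-CreERT2, a tamoxifen-activated Cre under a promoter active in most cells, and p38α flox/flox alleles, and received tamoxifen (TAM) at about 1 year of age. Per the study's methods, controls were age-matched p38α fl/fl mice without Cre that were also given TAM, so both groups shared the floxed alleles and the drug, and only the p38KO mice carried Cre. Because the Cre was not limited to blood cells, deletion could occur in the marrow surroundings as well as in the stem cells. By the sample labels the sort took CD150+CD48-Flt3-CD34- cells among those that lacked lineage markers and expressed Sca-1 and c-Kit. The study's methods add absence of CD41, and the series description names neither CD150, CD48 nor CD41, so the gate is not settled. The number of mice behind each array was not given in the sources used here.

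AP-1 is a set of dimers of basic leucine zipper (bZIP) proteins. Jun proteins pair with each other or with Fos proteins, whereas Fos proteins need a Jun partner, and Atf3, Batf and small Maf proteins join some of these dimers. The dimers bind short palindromic DNA elements, several members are immediate early genes that are switched on within minutes of a stimulus, and p38 signaling is one of the inputs that induces Fos and Jun transcription.

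With 1 array per genotype the differences had no replicate check and no test was run. Signals are given as log2 intensity relative to the 75th percentile of each array, and differences as the array labelled p38KO minus WT. On both arrays 62976 spots were read, 67.9% and 69.0% of the probes in use were well above background on WT and p38KO, and no probe was saturated. Both Mapk14 probes read nearly the same on the 2 arrays, 2.34 and 2.31 for one and 2.08 and 2.03 for the other. Where these probes lie relative to the deleted part of the gene is not known here, so the label was not checked by them. The study checked the deletion separately, by genomic PCR on blood cells of such mice, which does not cover the sorted cells on these arrays. The reduction that the study reported there was partial. The second array is called the array labelled p38KO throughout. All 13 LT-HSC markers were well above background on both arrays. In sorted bulk RNA, fewer cells of a type and less RNA per cell cannot be told apart.

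The AP-1 family did not move as a block. Jun, Junb, Fosl2 and Atf3 were lower on the array labelled p38KO, and Fosl1 was not well above background there. Fosb was higher, and Fos, Jund, Batf and Maff differed by little. Fosl2, Jun and Junb are shown by probe sequence, because their probes had the lowest differences among those measured on both arrays. The probes are written 5′ to 3′ as the scanner files give them. The Fosl2 and Junb probes are 60 bases long and open in at least 1 reading frame, and of the Jun probe the first 30 bases are given, with an in-frame stop codon in capitals.
Fosl2 probe: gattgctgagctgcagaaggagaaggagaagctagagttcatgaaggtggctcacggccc
Jun probe: atgctaacgcagcagttgcaaacgtttTGA
Junb probe: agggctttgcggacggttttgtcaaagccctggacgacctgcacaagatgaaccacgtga
In the mm9 coordinates of the array design, these probes lie at chr5:32455088-32455147 on the plus strand, chr4:94716928-94716987 on the minus strand and chr8:87501881-87501940 on the minus strand. No gene annotation of that build was used here.

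Several AP-1 genes are themselves controlled through cAMP response elements and AP-1 sites close to their start sites, and 250 bases before the start are shown for Fos and Fosb, which were not lower on the array labelled p38KO, and for Jun and Junb, which were. The sequences are RefSeq promoters of build GRCm38.p6, for which 9 of the 10 members matched with 11 promoters. Capitals mark TGACNTCA, TGACG and TATAAA.
Fos promoter, chr12:85473640-85473889, plus strand: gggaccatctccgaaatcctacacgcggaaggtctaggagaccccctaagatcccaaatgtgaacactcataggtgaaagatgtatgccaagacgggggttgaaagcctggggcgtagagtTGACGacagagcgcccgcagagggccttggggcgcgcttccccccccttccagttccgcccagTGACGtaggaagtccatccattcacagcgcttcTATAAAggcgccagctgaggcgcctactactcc
Fosb promoter, chr7:19310046-19310295, minus strand: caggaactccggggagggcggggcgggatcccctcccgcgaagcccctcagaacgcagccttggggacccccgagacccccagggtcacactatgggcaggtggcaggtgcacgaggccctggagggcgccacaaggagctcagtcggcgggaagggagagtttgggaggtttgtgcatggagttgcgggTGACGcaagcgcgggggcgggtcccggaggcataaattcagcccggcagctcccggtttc
Jun promoter, chr4:95052223-95052472, minus strand: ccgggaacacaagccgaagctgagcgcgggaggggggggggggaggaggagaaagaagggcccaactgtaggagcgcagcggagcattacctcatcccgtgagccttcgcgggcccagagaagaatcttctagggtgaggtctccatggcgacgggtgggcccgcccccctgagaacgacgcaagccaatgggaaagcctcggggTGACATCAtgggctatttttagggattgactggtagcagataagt
Junb promoter, chr8:84978749-84978998, minus strand: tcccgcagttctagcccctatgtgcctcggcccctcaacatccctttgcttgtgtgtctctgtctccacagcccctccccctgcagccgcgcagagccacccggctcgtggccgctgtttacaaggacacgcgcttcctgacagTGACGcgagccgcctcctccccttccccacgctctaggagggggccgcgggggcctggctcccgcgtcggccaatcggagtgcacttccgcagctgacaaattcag
The AP-1 element TGACTCA, searched on both strands as all motifs were, occurred in 0 of the 11 member promoters and in 4.46% of all 32851 promoters. The full cAMP response element TGACGTCA was found in 1 Maff promoter, 29 bases before the start, against 1.55% of all promoters. TGACNTCA, which includes TGACGTCA, matched 3 member promoters of 2 genes (7.49% of all promoters), among them Jun at 45 bases before the start. The shorter TGACG, which overlaps TGACGTCA, was in 7 member promoters of 6 genes (17.8% of all), and the Fos promoter held it 129 and 66 bases before the start. TATAAA was found in the Fos promoter, 33 bases before the start, and in 12.4% of all promoters. The CArG box, the element bound by serum response factor, was absent from these 11 windows and present in 1.47% of all. Elements more than 250 bases before the start were not searched, so absence from a window is not absence from the promoter. These matches describe the letters of the windows and do not show which factors bound there.

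Among the Fos genes, Fosb was higher on the array labelled p38KO and Fos was close to level. Fos, the classic immediate early member, was printed 10 times on each array (chr12:86817900-86817959, plus strand). Its spots ran from 4.57 to 4.84 on the WT array, with a median of 4.73, and from 4.72 to 4.92 on the array labelled p38KO, with a median of 4.84. The spots overlapped, although 9 of the 10 spots labelled p38KO were above the WT median and 5 were above every WT spot. The mean difference of 0.10, or 1.08-fold, compared with a standard error between spots of 0.03 and with an error of 0.21 that the scanner software's signal errors gave. Fosb, whose product pairs with Jun proteins as Fos does (chr7:19888168-19888227, minus strand), read 6.19 on the WT array and 6.73 on the array labelled p38KO. Its difference of 0.54, or 1.45-fold, was the highest of the family and 4.03 times the spot-to-spot SD of a difference between single spots, which was 0.13 over 276 repeated probes. That SD describes printing and scanning alone and says nothing about how mice differ. The scanner's errors gave the Fosb difference an error of 0.20. Probes with a mean signal above 4, as that of Fosb was, had differences with an SD of 0.41.

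The Fos-related antigens were lower. Fosl1, which encodes Fra-1 (chr19:5455496-5455555, plus strand), read -2.81 on the WT array, an intensity of 20.4. On the array labelled p38KO it was not well above background, with an intensity of 1.01. Read at the lowest signal well above background on that array, -4.78, in place of its own, Fosl1 was 3.91-fold lower. Some signals above such a floor also failed the scanner's test, so this fold is uncertain. Its WT signal was itself dim, and the scanner's error on it was 13.1%. Of probes measured on both arrays with a mean signal between -3 and -2, 10.2% passed 2-fold downward. The differences of those probes had an SD of 0.84. Fosl2, which encodes Fra-2, was measured by a pair of probes whose starts lie 4988 bases apart. The probe shown above read -0.51 on WT and -1.40 on the array labelled p38KO, 1.86-fold lower. The other probe (chr5:32460076-32460135, plus strand) read 1.79 and 1.49, 1.23-fold lower. Both Fosl2 probes were lower on the array labelled p38KO, but their differences, -0.90 and -0.30, lay 0.60 apart, 4.48 times the spot-to-spot SD.

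**Figure D1:**
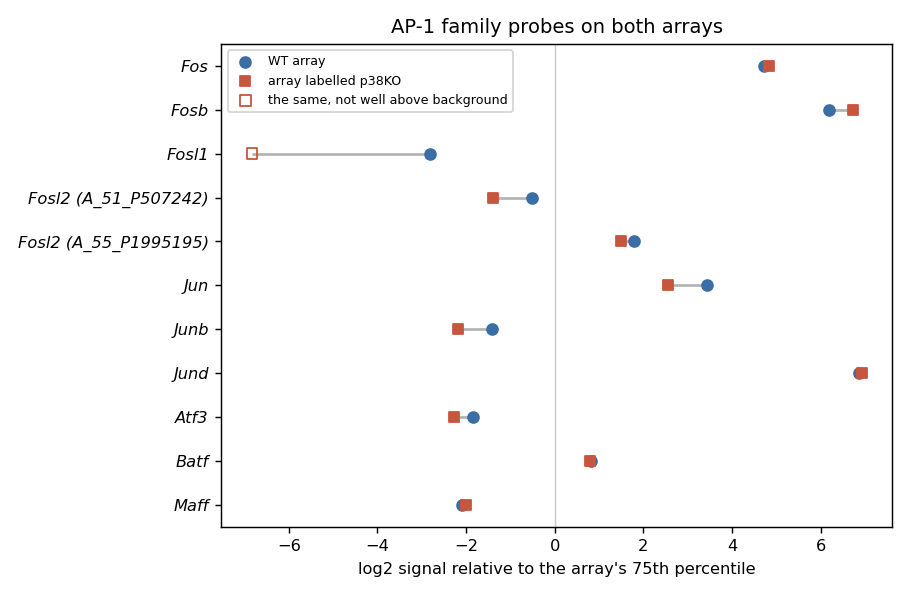
Log2 signal of each AP-1 probe relative to the 75th percentile of its array (x axis), with 1 array per genotype and no error bars. Jun, Junb, Atf3 and both Fosl2 probes sit to the left of their WT points, and Fosb sits to the right. Fosl1 is plotted at its measured value because its open square was not well above background.

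**Figure D2:**
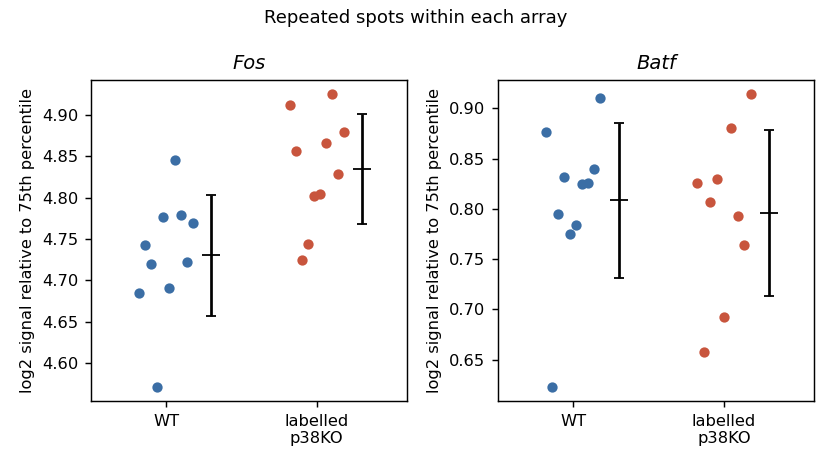
Every spot of Fos and Batf, the members printed repeatedly on each array, in log2 signal relative to the 75th percentile (y axes start at different values). Bars give mean and SD between spots of 1 array, and the spots of the 2 arrays overlap for both genes.

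Of the Jun genes, Jun and Junb were lower and Jund was nearly level. Jun, the partner that Fos proteins need for binding DNA, read 3.43 on WT and 2.56 on the array labelled p38KO. These values corresponded to intensities of 1540 and 680, and to a 1.82-fold lower signal. The Jun difference of -0.86 was 6.47 times the spot-to-spot SD, and the scanner's errors gave it an error of 0.20. Probes as bright as Jun varied less between the arrays than dimmer ones. Jun itself did not pass 2-fold. Over all probes well above background on both arrays, 7.49% had a difference as low as that of Jun or lower. Of the 3849 probes with a mean signal between 2 and 4, 1.45% passed 2-fold downward and the SD of their differences was 0.47. Junb, a Jun protein that restrains the growth of stem and myeloid cells in mice, read -1.41 and -2.18, or 1.70-fold lower. Its probe was dimmer, with intensities of 53.8 and 25.4, in a range (-2 to -1) where differences had an SD of 0.74 and 7.73% of probes passed 2-fold downward. Jund, which is usually expressed without stimulation (chr8:73224436-73224495, plus strand), read 6.86 and 6.93. The Jund difference of 0.07 was smaller than the spot-to-spot SD.

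Of the partners, Atf3 was lower and the other two were nearly level. Atf3, a stress-induced factor that often represses transcription (chr1:192994547-192994606, minus strand), read -1.84 on WT and -2.27 on the array labelled p38KO, 1.35-fold lower, at intensities of 40.0 and 23.8. Its mean signal lay between -3 and -2, where differences had an SD of 0.84. Over all probes well above background on both arrays, 20.4% had a difference as low as that of Atf3 or lower. Batf, a Jun partner known from T and B cells and from stem cell responses to DNA damage (chr12:87049872-87049929, plus strand), had 10 usable spots on WT, from 0.62 to 0.91, and 9 on the array labelled p38KO, from 0.66 to 0.91. Its spots overlapped almost wholly and the means differed by -0.01. Maff, a small Maf protein without a transactivation domain (chr15:79189442-79189501, plus strand), read -2.09 and -2.01. The Maff difference of 0.09 was also within the spot-to-spot SD.

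Counted over the family, 1 of 11 probes, Fosl1, had a signal lower by 2-fold or more on the array labelled p38KO and 0 had one higher by 2-fold or more. A total of 40416 probes stood well above background on 1 array or both, and 7.52% of them passed 2-fold downward and 6.32% upward, so the family's count at this size was near the background. At 1.5-fold, 4 probes were lower, those of Fosl1, Jun and Junb and 1 of Fosl2, and 0 were higher, against 16.4% and 16.6% of all probes. Lower signals by any amount were read at 7 of 11 probes, against 49.6% of all. The median difference was -0.30 over the 11 probes and 0.01 over all probes, with quartiles of -0.38 and 0.41. Differences past the spot-to-spot SD were seen at 7 probes, 6 lower and 1 (Fosb) higher, against 40.7% lower and 41.8% higher of all probes, so passing this SD was common on these arrays. With each gene read at its brightest probe the median was -0.16 over 10 genes, whereas the summed signal of those probes was 0.20 higher on the log2 scale. The sum weights the bright probes of Fos, Fosb and Jund, so the median and the sum differed in sign.

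**Figure D3:**
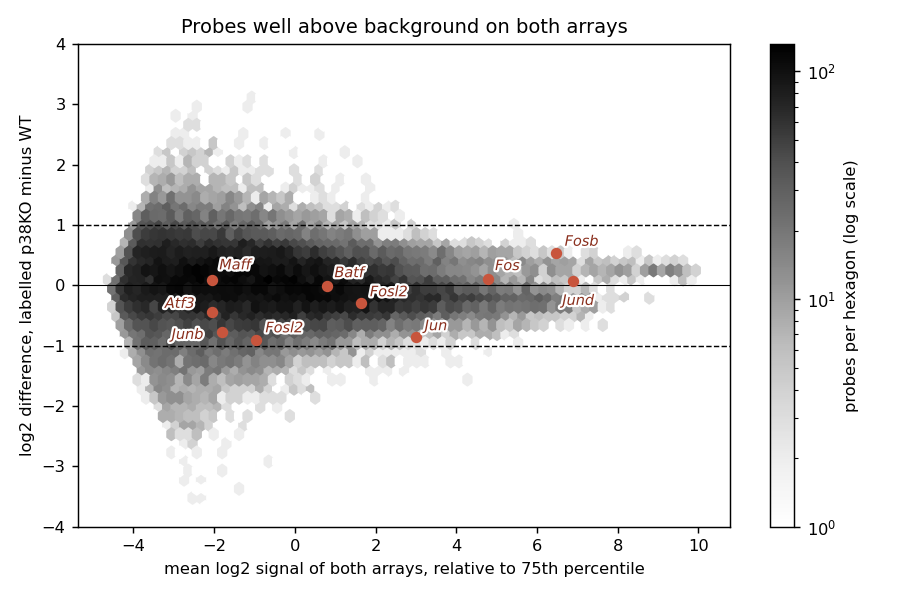
Log2 difference between the arrays (y axis) against the mean log2 signal (x axis) for the 35798 probes well above background on both, with shading for the number of probes on a log scale and AP-1 probes as red points. Dashed lines mark 2-fold, 31 probes lie beyond the y axis, and all 10 AP-1 probes fall inside the 2-fold lines, with Jun toward the lower side of probes of its brightness.

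The size of some differences depended on how background was removed, whereas Jun and Fosb changed little with it. Over 10 alternatives Jun ranged from -0.94 to -0.78, and Fosb from 0.47 to 0.61. With normexp background correction, which adds a constant and compresses dim signals, Junb came to -0.26, the dimmer Fosl2 probe to -0.41, Atf3 to -0.03 and Fosl1 to -0.15. Over the alternatives Fos ranged from 0.03 to 0.22 and Jund from 0.01 to 0.12, and Batf took the other sign in 3 of 10.

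**Figure D4:**
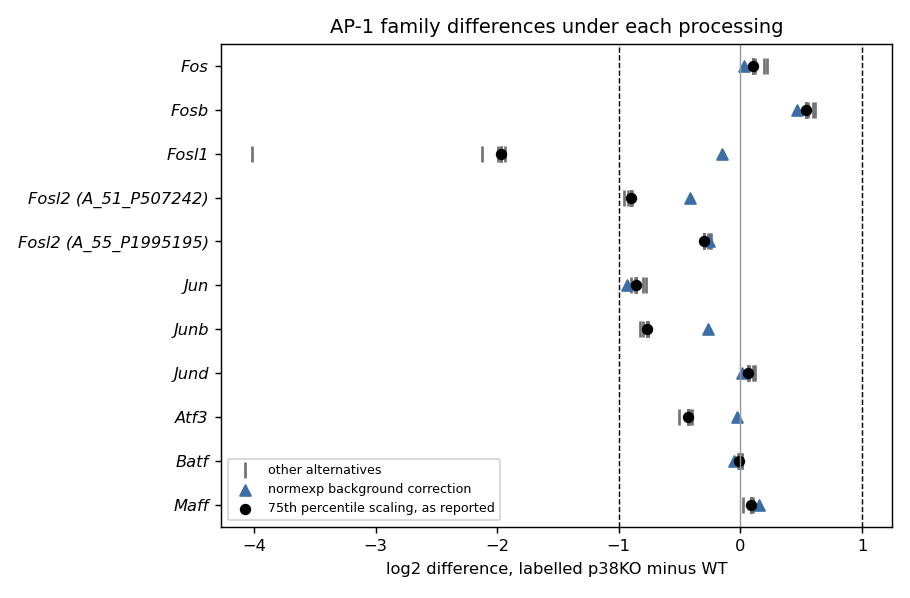
Log2 difference of each AP-1 probe (x axis) under the processing reported (black), normexp background correction (blue) and the other alternatives (grey ticks), with dashed lines at 2-fold. The blue triangles of Fosl1, Junb, Atf3 and the dimmer Fosl2 probe lie nearer 0, whereas those of Jun and Fosb lie close to the black points.

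Other bZIP genes, which can pair with AP-1 proteins or bind related elements, leaned lower. Of 27 genes, 24 were measured (well above background on either array), 15 were lower and 9 higher, with a median of -0.21, against 48.5% lower and a median of 0.02 over 26488 gene names. Past 2-fold downward were 2 (6.36% of all gene names) and past 2-fold upward 0 (5.52%). Crem, a cAMP-responsive modulator, read -1.84 and -2.94, with its 3 probes differing by -1.10 to 0.02. Atf6b, a factor of the endoplasmic reticulum stress response, read 0.24 and -0.81, and Nfe2, a factor of platelet and red cell formation, 4.72 and 3.85. The largest higher signals were those of the small Maf gene Mafg at 2.96 and 3.93, of Atf7 at -0.67 and 0.05, and of Mafa at 5.69 and 6.29. The 4 Mafg probes disagreed, with differences from -1.12 to 0.97.

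Genes known as AP-1 targets in other cells went mostly the other way from Jun. Of 26 targets 17 were measured, 3 lower and 14 higher, with a median of 0.36, against 48.5% lower and a median of 0.02 over all gene names. Past 2-fold upward were 2 of the 17, against 5.52% of all gene names, and past 2-fold downward 0, against 6.36%. Bcl2l11, which encodes the death-promoting protein Bim, read -2.72 on WT and -1.58 on the array labelled p38KO. Il6, an inflammatory cytokine, read -4.57 and -3.55, close to the lowest signal well above background. Vegfa, an angiogenic factor, read 0.11 and 0.95 at its brightest probe, while its other probe differed by -0.10. Lower targets were the urokinase receptor gene Plaur (-1.83 and -2.66), the cyclin gene Ccnd1 (1.95 and 1.42) and the connexin gene Gja1 (-0.55 and -1.05). The list mixes targets from many tissues, and 9 of its genes were not well above background on either array.

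Other immediate early genes were evenly split. Of 28 genes 27 were measured, 14 lower and 13 higher, with a median of -0.10, against 48.5% lower and a median of 0.02 over all gene names. Past 2-fold was 1 gene in each direction, no more than the background of 6.36% downward and 5.52% upward. Ier3, an early stress-response gene, read 1.48 and -0.34, 3.52-fold lower. Nfkbia, the inhibitor of NF-κB, read 2.14 and 1.43, and Csrnp1, an early nuclear protein, 0.79 and 0.09. Klf2, a factor of quiescence in lymphocytes, was 2.30-fold higher at 3.27 and 4.47. Arc read -4.25 and -3.42 and the clock gene Per1 1.82 and 2.48.

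Heat shock genes, which respond to cell handling, and LT-HSC markers were lower alongside Jun, Junb and Fosl2, whereas neutrophil and lymphocyte markers were mostly higher. Over all gene names 48.5% were lower, and the median was 0.02. All 8 measured heat shock genes were lower on the array labelled p38KO, with a median of -0.35. Of these, 2 passed 2-fold downward and 0 upward, against 6.36% and 5.52% of all gene names. Hspb1 (0.12 and -1.63), Hspa1a (3.01 and 1.71) and Hsph1 (4.71 and 4.08) had the largest differences. LT-HSC markers were lower for 12 of 13 genes, with a median of -0.54 and a summed signal of 7.47 on WT and 7.12 on the array labelled p38KO. Among the 13, 2 passed 2-fold downward and 0 upward. Mecom read 0.46 and -0.98 at its brightest probe, with its 3 probes differing by -1.44 to 0.61, Procr 4.38 and 3.17, and Slamf1 -1.26 and -2.08. Neutrophil markers passed 2-fold upward for 6 of 8 genes and downward for 2 (5.52% and 6.36% of all gene names), with a summed signal of 2.80 on WT and 4.41 on the array labelled p38KO. Ltf, S100a9 and Ngp were 4.69-fold, 4.04-fold and 3.99-fold higher, and Elane was 2.67-fold lower. Ly6g, the other lower gene, is a bound, since the array labelled p38KO gave it a signal too dim to measure. With normexp 2 neutrophil markers passed 2-fold upward and 0 downward, and their median of 1.41 came to 0.84. B cell markers were higher for 7 of 7 measured genes (summed signal 1.46 and 1.88), and T and NK cell markers for 5 of 5 (4.09 and 4.57). Nkg7 (3.54 and 3.86) made up most of the T and NK cell sum. The second probes of Cd4 and Nkg7 differed by -0.01 and -0.04. Monocyte and macrophage markers were lower for 2 and higher for 3 (7.73 and 8.11), erythroid markers lower for 2 and higher for 5 (2.70 and 2.97), and megakaryocyte markers lower for 3 and higher for 4 (6.63 and 6.47). At the brightest probes of these lists Lyz2 (-0.96), Hbb-bt (-1.10) and Vwf (-0.55) had the lowest differences, and Slc4a1 (1.06) and Gp5 (1.18) were among those higher. Itgam (7.505 and 7.922) made up most of the monocyte and macrophage sum, and its 3 probes disagreed, from -0.415 to 0.881. The 3 Csf1r probes disagreed as well, from -2.278 to 0.761. The B cell markers Ms4a1 and Ebf1 were not well above background on WT, and Cd3d, Cd3g and Ncr1 were not so on either array. Among genes of the surface proteins that the labels' gate leaves out, Cd48 read -2.06 and -0.69, Flt3 -2.31 and -1.95 and Cd34 2.81 and 2.67, and Itga2b, which encodes the CD41 named in the methods alone, read 0.61 and 0.24. The Cd34 probes differed by -0.997 and -0.147, and the 3 Flt3 probes by -0.071 to 0.878. The Cd48 probes differed by 0.19 and 1.37, and Cd48 was no longer past 2-fold when its probes were averaged. The part of handling and of other cells in the AP-1 differences was not tested.

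**Figure D5:**
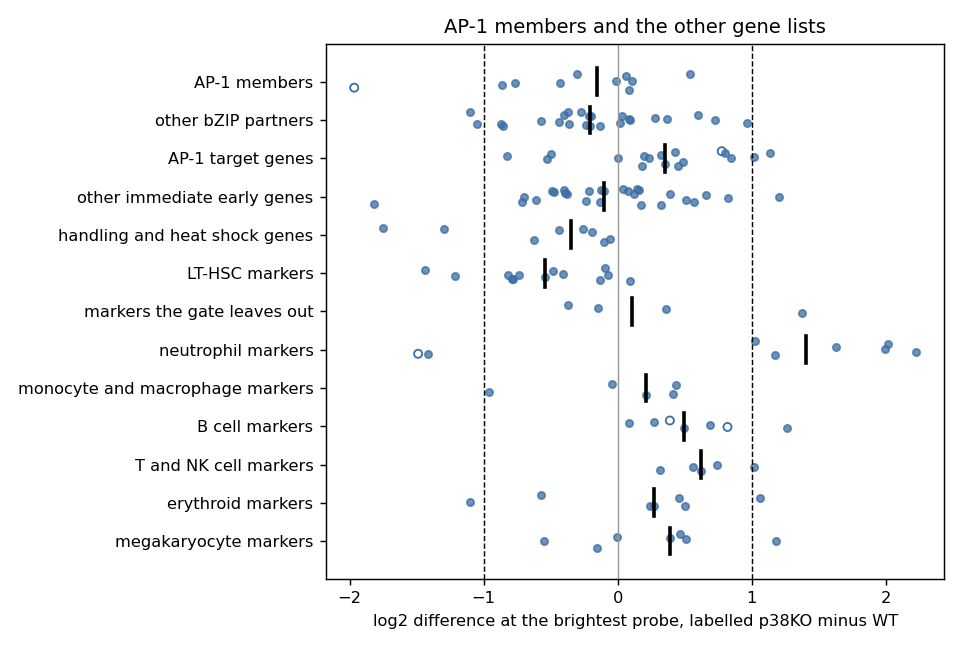
Log2 difference of each measured gene at its brightest probe (x axis) in the AP-1 family and the 12 other lists, with open circles for genes well above background on 1 array only, black bars for medians and dashed lines at 2-fold. AP-1 members spread on both sides of 0, heat shock genes all lie below it, and most AP-1 targets lie above it.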

How the data were processed

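RNA of sorted LT-HSCs was hybridized to 1 Agilent array per genotype, and the study outsourced extraction, labelling, hybridization and normalization. The intensity values deposited were processed with Agilent Feature Extraction 11.5.1.1 (1-colour protocol), per the file headers, with background subtraction and detrending and no scaling between arrays. The authors also deposited log2 values for 35795 probes, whose method was not given in the sources used here. They differed from the scanner's log2 signal by a constant near the 75th percentile of each array (7.16 for WT, 6.84 for p38KO) and served as an alternative. Both arrays lay on the same slide.

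Control spots and spots marked as outliers (168 on WT, 124 on p38KO) were left out, spots of a probe were averaged in log2, and the 75th percentile over non-control probes was subtracted. Signals that failed the scanner's test for being well above background were raised to a floor where they lay below it. The floor was the dimmest signal passing the test on that array (-4.65 for WT, -4.78 for p38KO). Folds with a raised signal are lower bounds on the measured fold. Some signals above the floor failed the test and kept their value, so the floor is not a detection limit. Precision is limited by the number of arrays, 1 per group, so no test was possible. Called means at least 2-fold. Repeated spots gave the spot-to-spot SD. Alternatives were normexp (limma 3.58.1 in R 4.3.3, offset 50), signals before detrending, quantile scaling, median centring, loess (span 0.3, statsmodels 0.14.6), the authors' values, other filters, no floor, outlier spots kept, 1.5-fold, and the mean of a gene's probes. In simulated arrays 100.0% of 200 changed probes were recovered under each of the 4 scalings tested. The changed probes were well above background on WT and were shifted past the 2-fold limit. The noise added was smaller than the spread between the real arrays. Recovery was therefore nearly fixed in advance and checks the code alone, not how reliable the calls on the real arrays are.

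The members and the lists were chosen with earlier results of these data known. Text names all members, Mapk14, and from each list the 3 largest differences in each direction among genes well above background on both arrays, of which the report gives those of the lists it describes by gene. The values of 1 gene that this rule names are not reported here. Fosl1 has no promoter in the RefSeq table used. Protein comparisons were not run here.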

Additional observations from a re-analysis of the deposited data

How the results depend on the processing

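All 11 AP-1 probes except Batf kept their direction under every alternative that gave a value, and no AP-1 probe other than Fosl1 reached 2-fold under any. The family median of -0.30 over probes came to -0.049 with normexp, -0.15 with the authors' values and -0.16 for probes well above background on both arrays. In those 3 settings 0 probes and 0 genes were at least 2-fold lower. Fosl1 is absent from the last 2 settings, and normexp cut the calls over all probes from 3040 lower and 2556 higher to 291 and 252. At 1.5-fold, 4 probes and 3 genes were lower. Fosl1 itself ran from -4.02 without a floor to -0.15 with normexp.

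Of the other bZIP genes, 0 were at least 2-fold lower with normexp and 1 when probes were averaged per gene, and 1 was at least 2-fold higher with quantile scaling or loess. Of the AP-1 targets, 0 were at least 2-fold higher with normexp and 1 with quantile scaling, loess or the authors' values, and their median came to 0.093 with no filter on low signal. No paired analysis was possible because each genotype had 1 array, and no replicate could be left out. Signal over background limits Fosl1 most, and Atf3, Junb and Maff were dim as well.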
